A study of Mus musculus with 2 samples.

Results

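Oligodendrocyte progenitors and their first committed descendants were examined in single-cell RNA libraries of injured mouse spinal cord. Cells were chosen by measured values: at least 5 UMIs (unique molecular identifiers, 1 for each captured transcript) summed over Pdgfra, C1ql1, Lhfpl3, Gpr17, Neu4 and Cspg4, at least 1 UMI of Olig1 or Olig2, at most 5 UMIs of Mog plus Mag and at most 5 UMIs of Col1a1, Col1a2 and Dcn together. The rule found 55 of 5145 cells that passed the cell filter, 20 of 2975 in the library labelled HDAC3i and 35 of 2170 in the library labelled Vehicle. Both libraries were 10x 3' v3 preparations of mouse spinal cord taken 5 days post injury, and they differ by treatment, an inhibitor of the histone deacetylase HDAC3 or its vehicle. The compound, its dose, the injury model, the strain, sex and age of the mice and the number of animals behind each library are not given in the sources used here. With 1 library per treatment there is no replicate and no test between treatments. Every interval below is an exact 95% interval for counting error only, the limit beside a count of 0 is 3 cells of the total, and a difference between the libraries cannot be told apart from a difference between 2 animals, dissections or runs.

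Oligodendrocyte progenitors are the dividing glia of the adult cord that carry the PDGF receptor alpha, encoded by Pdgfra, and the proteoglycan NG2, encoded by Cspg4. When a progenitor commits to differentiation it loses Pdgfra and passes through a short stage marked by the receptor Gpr17, the sialidase Neu4 and the ligand Bmp4, then begins to make myelin lipids and proteins. Olig1, Olig2 and Sox10 are transcription factors of the whole lineage. After spinal cord injury progenitors divide around the lesion and replace lost oligodendrocytes. HDAC3 is the catalytic subunit of nuclear corepressor complexes, which remove acetyl groups from histones.

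Sox10, which the rule did not use, had UMIs in 15 of 20 HDAC3i members and 31 of 35 vehicle members. It had UMIs in 6 of 399 and 4 of 418 microglia and in 0 of 93 and 0 of 45 astrocytes, which allows up to 3.23% and 6.67% of astrocytes with a UMI. Mature oligodendrocytes, of the same lineage, had Sox10 UMIs in 341 of 395 and 194 of 208 cells. Sox10 thus marks the lineage and does not set members apart within it. The genes of the rule were high in members by the choice of cells and are given as a description. Olig1 had UMIs in all 20 HDAC3i members and in 33 of 35 vehicle members, against 10 of 399 and 7 of 418 microglia. Like Sox10 it was also common in mature oligodendrocytes, with UMIs in 384 of 395 and 202 of 208. C1ql1, a secreted protein of progenitors, had UMIs in 18 of 20 and 34 of 35 members and in 0 of 399 and 0 of 418 microglia, which allows up to 0.752% and 0.718% of microglia with a UMI. Gpr17 had UMIs in 16 of 20 and 30 of 35 members and in 1 of 399 and 1 of 418 microglia. Microglia stand here for a type that should lack these transcripts, and their median depths were 12027 and 13307 UMIs against 10331 and 11940 in members. Pdgfra, found in 11 of 20 and 20 of 35 members, also had UMIs in 45 of 54 and 26 of 30 fibroblasts. No cell that met the other limits was removed by the collagen limit.

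Members carried between 3880 and 23912 UMIs in the HDAC3i library and between 1211 and 31344 in the vehicle library, with medians of 3870.5 and 4257 genes. The vehicle library held 7 members under 3000 UMIs and the HDAC3i library 0. Of cells that met the other limits, 1 HDAC3i and 4 vehicle cells had a sum of 3, just outside the rule, and none had 4. Just inside it, 1 vehicle cell had 5, 1 HDAC3i and 4 vehicle cells had 6, and 2 vehicle cells had 7. Median sums over the 6 genes were 42.5 and 61.0. No member's barcode was among the 10 that the libraries share.

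Several marker lists of other cell types had few UMIs in any member. Microglia markers reached at most 4 UMIs in an HDAC3i member and 5 in a vehicle member, endothelial markers 4 and 4, neutrophil markers 4 and 6, and haemoglobin markers 1 and 2. The macrophage list made 989 CPM (UMIs scaled to the summed UMIs of the cells) in HDAC3i members and 584 CPM in vehicle members, against 37992 and 31907 CPM in the other cells. It reached 49 UMIs in 1 HDAC3i member and 39 in 1 vehicle member. Mural markers reached 292 UMIs in 1 HDAC3i member and at most 1 in a vehicle member. Astrocyte markers reached 22 UMIs in 1 HDAC3i cell and 62 in 1 vehicle cell. They made 340 and 294 CPM in members, more than the 187 and 121 CPM in the other cells. Neuron markers did likewise, with 205 and 262 CPM against 100 and 60.4 CPM, and at most 14 and 10 UMIs in a member. Schwann markers reached 7 and 8 UMIs and mature oligodendrocyte markers 11 and 7. The part of all these transcripts in the results was not tested.

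Of the HDAC3i members, 2 fit the label poorly. One of 10292 UMIs owed its whole rule sum, 6 UMIs, to Cspg4, which pericytes also make. It had 1 UMI of Olig1, none of Sox10, and 292 UMIs of mural cell genes, among them 100 of the smooth muscle actin Acta2, 66 of Tagln and 63 of Rgs5. The other, of 6574 UMIs, had 24 UMIs of C1ql1 but 1 of Olig1 and none of Pdgfra, Gpr17, Neu4 or Sox10, with 186 UMIs of Ckb, 100 of the intermediate filament Vim and 25 of Fxyd7. Without both, Vim made 103 CPM in HDAC3i members in place of 610, against 61.8 CPM in vehicle members. The mural list made 1289 CPM in HDAC3i members and 12.8 CPM in vehicle members, and 292 of its 296 HDAC3i UMIs lay in the first of these cells.

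Members made 0.672% (0.411 to 1.04) of HDAC3i cells and 1.61% (1.13 to 2.24) of vehicle cells. The ratio of the shares was 0.417 (0.228 to 0.742), or -1.26 on the log2 scale, and -1.41 without the 2 doubtful cells. With every cell thinned to 2000 UMIs before the rule was applied it was -1.35. Mature oligodendrocytes, taken as cells with at least 6 UMIs of Mog plus Mag, were at the same time a larger share of the HDAC3i library, 13.3% against 9.59%, a ratio of 1.39 (1.17 to 1.65). Members were therefore 4.82% (2.97 to 7.35) of the lineage cells in the HDAC3i library and 14.4% (10.2 to 19.5) in the vehicle library, a ratio of 0.335 (0.183 to 0.596). The counting interval of each of these ratios lay on 1 side of 1.

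**Figure D1:**
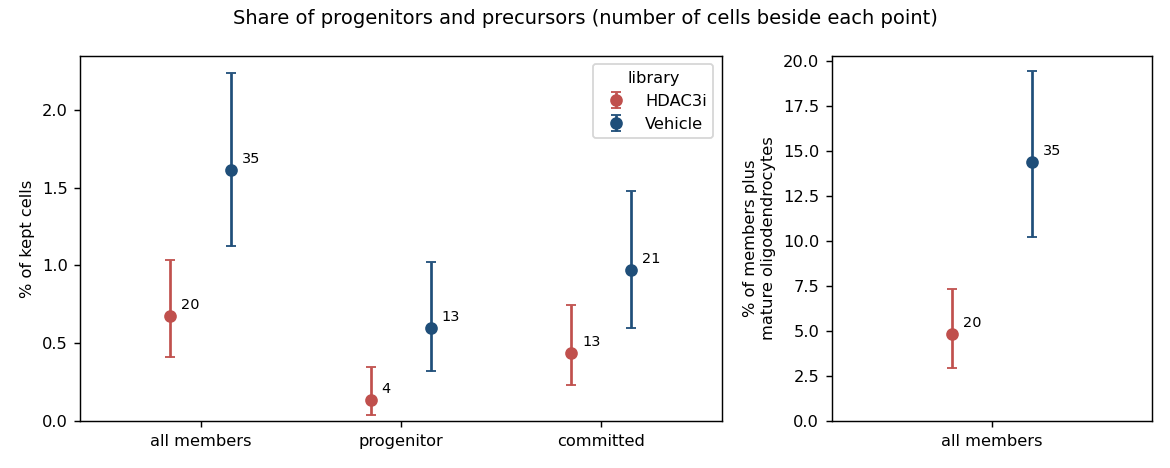
Share of progenitors and precursors in each library, as a percent of kept cells on the left axis and of members plus mature oligodendrocytes on the right axis. Points are shares, bars are exact 95% counting intervals and the number beside each point is its count of cells. All members were 0.672% of HDAC3i cells and 1.61% of vehicle cells.

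Cells were divided by comparing UMIs of Pdgfra with those of Gpr17, Neu4 and Bmp4 together. Progenitors, with more Pdgfra, numbered 4 in the HDAC3i library and 13 in the vehicle library. Committed precursors, with more of the other 3 genes, numbered 13 and 21, and 3 and 1 cells had equal sums, including both doubtful cells. Committed precursors were 65.0% (40.8 to 84.6) of HDAC3i members and 60.0% (42.1 to 76.1) of vehicle members. Without the 2 doubtful cells the HDAC3i share was 72.2%. As a share of kept cells, progenitors had a ratio of 0.224 (0.0533 to 0.726) and committed precursors of 0.452 (0.208 to 0.945). With 1 library per treatment neither ratio has a test.

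Pdgfra was not exclusive to the progenitors. In the vehicle progenitors it ranged from 2 to 35 UMIs with a median of 14.0, and the 4 HDAC3i progenitors had 7, 9, 9 and 15. Among committed precursors 6 of 13 HDAC3i cells and 6 of 21 vehicle cells also carried Pdgfra, at most 12 UMIs in either library, and the other 7 and 15 had none. Bmp4 had UMIs in 6 HDAC3i cells (36 UMIs) and 11 vehicle cells (128 UMIs), and none of these cells had a UMI of Pdgfra. Such a cell is a committed precursor by the division itself. Gpr17 ranged from 0 to 5 UMIs in HDAC3i progenitors and 0 to 6 in vehicle progenitors, against 0 to 43 and 0 to 65 in committed precursors. Neu4 overlapped between the stages, with 2 to 5 and 1 to 8 UMIs in progenitors and 2 to 12 and 0 to 27 in committed precursors.

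**Figure D2:**
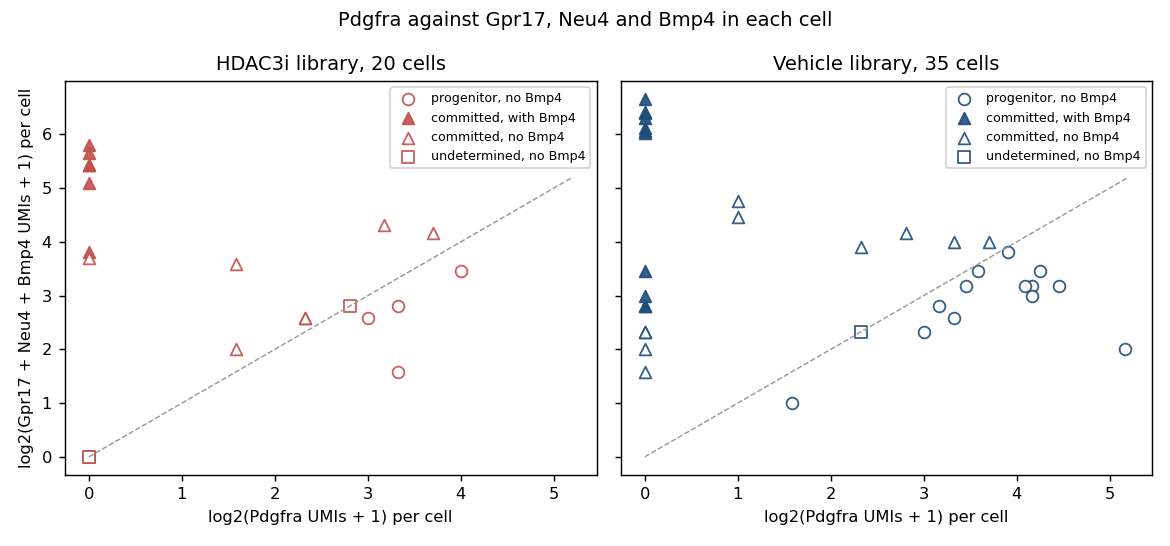
UMIs of Pdgfra (horizontal axis) and of Gpr17, Neu4 and Bmp4 together (vertical axis) in each cell, both as log2 of the count plus 1, by library. Circles are progenitors, triangles committed precursors, squares cells with equal sums, and filled symbols are cells with Bmp4. Cells with Bmp4, 6 in the HDAC3i and 11 in the vehicle library, all stand at 0 UMIs of Pdgfra.

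The division therefore left 3 groups, a split drawn after these values were seen. They were progenitors (4 and 13 cells), committed precursors with a Pdgfra UMI (6 and 6) and committed precursors with none (7 and 15). Median depths of the 3 groups were 9214.5, 9218.5 and 12992 UMIs in the HDAC3i library and 12845, 12203 and 5833 in the vehicle library. The third vehicle group held all 7 vehicle members under 3000 UMIs. The part of depth in its counts of 0 was not tested. In genes that the division did not use, the middle group stood near the progenitors in both libraries. Cspg5, a chondroitin sulfate proteoglycan, made 2638 CPM in HDAC3i progenitors, 2099 CPM in committed cells with Pdgfra and 35.2 CPM in those without. In the vehicle library the same 3 levels were 2904, 2239 and 34.9 CPM. It had UMIs in every cell of the first and second groups and in 1 of 7 and 1 of 15 cells of the third. Rlbp1, a retinoid-binding protein, went with it at 313, 262 and 11.7 CPM in the HDAC3i library and 317, 262 and 9.97 CPM in the vehicle library. Cyclin D1, encoded by Ccnd1, which drives entry into the cell cycle, made 919, 741 and 35.2 CPM in the HDAC3i library and 1623, 741 and 9.97 CPM in the vehicle library.

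Myelin and precursor genes had the opposite order. Fyn, a kinase that promotes myelination, made 313, 417 and 2877 CPM over the 3 HDAC3i groups and 189, 417 and 3250 CPM over the vehicle groups. Bcas1, a protein of newly forming oligodendrocytes, made 254, 972 and 2478 CPM and 389, 664 and 3848 CPM. Enpp6, an enzyme of choline metabolism that marks newly formed oligodendrocytes, had 0 UMIs in the first and second groups of both libraries and 235 and 713 CPM in the third. The 19 genes of cholesterol synthesis together made 1349, 1651 and 4099 CPM in the HDAC3i library and 1726, 1761 and 4063 CPM in the vehicle library. Cells without Pdgfra were thus set apart in both libraries by low proteoglycan and cyclin transcripts and high myelin and sterol transcripts, and these are descriptions of groups that the same cells' values made.

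The myelin list as a whole, 20 genes, followed Bmp4 cell by cell. Cells with Bmp4 had a median of 12231 CPM of the list in the HDAC3i library (7908 to 19259) and 12697.5 CPM in the vehicle library (7638 to 16667). Cells without Bmp4 had medians of 2445 (1133 to 6585) and 2542 CPM (1307 to 18629). In the HDAC3i library the ranges did not overlap. In the vehicle library they did, through cells of low depth: the 7 members under 3000 UMIs, all committed, had a median of 14100 CPM of the list, and 3 of them had a Bmp4 UMI.

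With all committed precursors summed, 90 of 2352 genes with at least 50 UMIs were at least 2-fold higher in committed precursors than in progenitors in both libraries, and 57 were at least 2-fold lower. These are 3.83% and 2.42% of the genes, and since the division used the same cells nothing is read from the counts. Large ratios toward the committed side belonged to Bcas1 (7.19 in the HDAC3i and 7.89 in the vehicle library), the microtubule protein Map1b (7.17 and 9.95) and the dynein light chain Dynll2 (11.9 and 6.56). The myelin enzyme Cnp followed with ratios of 7.05 and 6.02. The myelin lipid enzymes Fa2h and Gal3st1 and the tubulin Tubb4a were also among the 12 highest, with log2 ratios between 2.26 and 2.66, though Fa2h had 1 UMI in HDAC3i progenitors.

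Toward the progenitor side the lowest ratios were those of galectin 1, Lgals1, at log2 -3.38 in the HDAC3i and -4.44 in the vehicle library. In the HDAC3i library 70 of its 71 progenitor UMIs lay in 1 cell, the deepest HDAC3i member at 23912 UMIs, and without that cell the HDAC3i value was 1.86, in the other direction. S100a10, a partner of annexin, had log2 ratios of -2.43 and -2.63, and -0.46 in the HDAC3i library without the same cell, which held 19 of its 22 progenitor UMIs. The microtubule regulator Stmn1 had -1.97 and -2.71, and -0.72 without the cell, which held 31 of 40. Creb5 went from -2.87 to 0.13. The other 8 of the 12 genes named on the progenitor side stayed at least 2-fold lower in HDAC3i committed precursors without it. The potassium channel subunits Kcnmb4 (-1.74 and -1.74) and Kcnip3 (-1.70 and -2.66) and the glutamate transporter Slc1a2 (-1.62 and -1.95) stood with them. The matrix metalloproteinase Mmp16 made 293 and 230 CPM in progenitors and 73.4 and 64.1 CPM in committed precursors. Intervals for genes of few UMIs were wide, as for Lockd, with 5 UMIs in the HDAC3i progenitors.

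**Figure D3:**
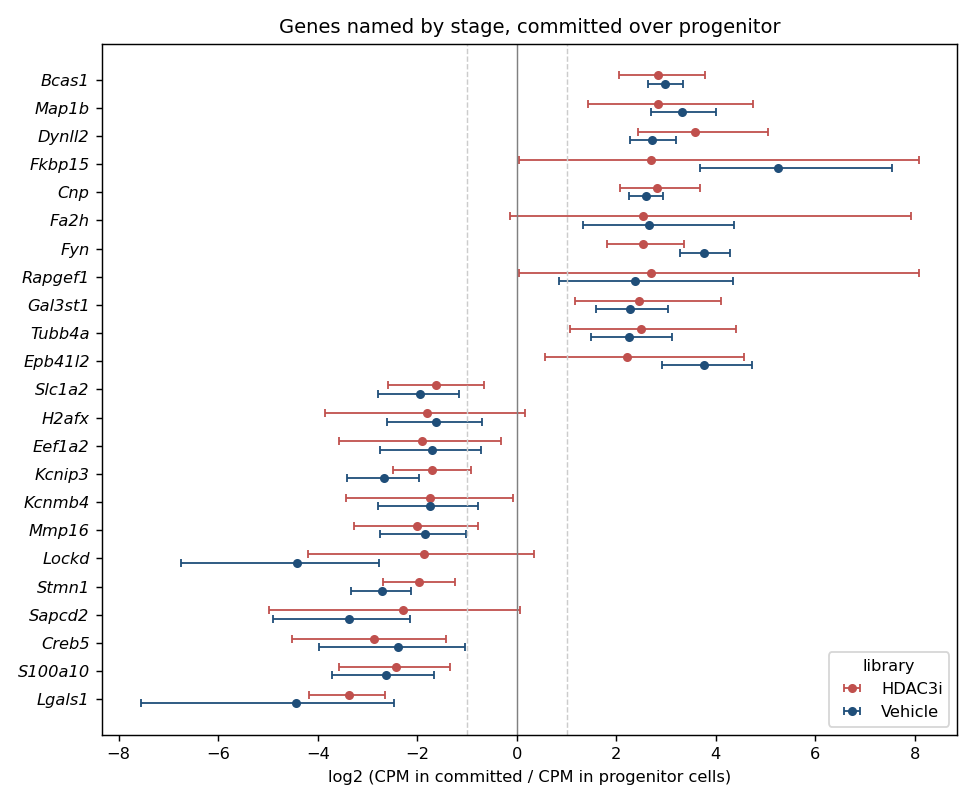
Log2 ratio of CPM in committed precursors over progenitors (horizontal axis) for 23 of the 24 genes named by stage, ranked by the smaller of the 2 ratios. Points are libraries, bars exact 95% counting intervals, dashed lines mark a 2-fold ratio. Bcas1 stands at 2.85 and 2.98 and Lgals1 at -3.38 and -4.44, where the HDAC3i value of Lgals1 rests on 1 cell.

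Lists of genes were described between the stages in the same way, without rule genes and dividing genes. Of the measured genes (at least 20 UMIs over both stages), 3.33% were at least 2-fold higher in committed precursors in both libraries and 3.51% at least 2-fold lower. For the committed list 14 of 20 measured genes were at least 2-fold higher and none lower. They included Nkx2-2, Tcf7l2 and Mycl, transcription factors that act in differentiation, and the deacetylase Sirt2. Of 14 measured myelin genes 6 were higher and none lower. Of 18 sterol genes 7 were higher and none lower, among them the farnesyl diphosphate synthase Fdps at log2 2.91 and 1.14. Of 23 progenitor genes 4 were at least 2-fold lower in committed precursors and none higher, and of 10 proteoglycan and matrix genes 3 were lower, with neurocan, Ncan, at -1.14 and -1.27 and the syndecan Sdc3 at -2.01 and -1.56. With rule genes counted, 17 of 26 genes on the progenitor list were lower in committed precursors in both libraries and 5 were higher in both. The tenascin Tnr, a matrix glycoprotein, was among those 5 with 0.69 and 1.11.

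Members were also set beside all other kept cells, with rule genes left out. The 15 highest genes by the smaller ratio of the 2 libraries included Rlbp1 (152 CPM in HDAC3i members and 183 CPM in vehicle members, against 0.132 and 0.174 CPM in other cells), Mybpc1, the calcium channel subunit Cacng4, Cspg5, Nxph1, Ptprz1 and the AMPA receptor subunit Gria2. Members were defined by transcripts of these same cells, so this is a description of them.

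Between the libraries, members were summed within each library and 2464 genes with at least 50 UMIs over both were compared. Of these 14 were at least 2-fold higher in HDAC3i members, 0.568%, and 43 at least 2-fold lower, 1.75%, with a median log2 ratio of -0.02. At a minimum of 20 UMIs the shares were 3.03% higher and 6.07% lower of 5384 genes, with a median of -0.03. Most genes thus stood within 2-fold, and 33 genes whose level in the other cells of a library was over 5 times that in its members were set aside as possible free RNA. Without the 2 doubtful cells 17 genes were higher and 43 lower, of which 11 and 34 were among the 14 and 43.

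Cdkn1c had the highest ratio among the genes compared, of which the mural genes Acta2, Tagln and Rgs5 and Vim were not part, since they were set aside. It encodes p57, an inhibitor of cyclin-dependent kinases that acts in cell cycle exit. HDAC3i members had from 0 to 40 UMIs with a median of 1, and UMIs in 13 of 20 cells. Vehicle members had from 0 to 5 with a median of 0, and UMIs in 12 of 35. The ranges overlapped from 0 to 5, and 40.4% of the HDAC3i UMIs lay in 1 cell. Summed, this was 431 CPM (350 to 525) against 64.0 (43.2 to 91.3), a ratio of 6.74 (4.44 to 10.5). Without the top cell of each library the log2 ratio went from 2.75 to 2.30, and over the alternatives tried it ranged from 2.30 to 2.85. The ratio was 6.77 (4.24 to 11.2) among committed precursors and 5.45 (1.87 to 16.9) among progenitors, where it rests on 10 UMIs in 3 of 4 cells and 7 UMIs in 3 of 13. Other kept cells had 70.4 and 60.1 CPM and mature oligodendrocytes 210 and 170 CPM. The gene lies at chromosome 7, 143458339 to 143461050, minus strand (mm10).

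Serpina3n, a secreted protease inhibitor that glia make after injury, came next at 1063 CPM against 328 CPM, a ratio of 3.24 (2.64 to 3.99). It had UMIs in few cells, 5 of 20 and 8 of 35, with at most 102 and 61 UMIs in a cell. Among committed precursors the ratio was 7.37 (5.37 to 10.3) from 3 and 4 cells, and among progenitors 0.872 (0.535 to 1.37), with all 24 HDAC3i progenitor UMIs in 1 cell. With the stages weighted alike its log2 ratio was 1.34 in place of 1.69. Cldn11, the tight junction claudin of myelin, made 497 and 164 CPM, a ratio of 3.02 (2.25 to 4.09), with UMIs in 9 of 20 and 18 of 35 cells. Weighting each member alike lowered its log2 ratio from 1.60 to 0.58.

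The glycolytic enzyme Tpi1 made 331 and 122 CPM, a ratio of 2.72 (1.91 to 3.91), with UMIs in 17 of 20 and 25 of 35 cells and a log2 ratio of 0.78 with each member weighted alike. Cthrc1, a secreted collagen-repeat protein, had a ratio of 2.60 (1.61 to 4.23). Eapp, Man1a2, Trnau1ap and Mrps28 had ratios between 2.12 and 2.58, each from 34 or fewer HDAC3i UMIs. Over the alternatives tried, the log2 ratio went as low as 0.62 for Trnau1ap and 0.83 for Mrps28, below 2-fold. The lowest values for Eapp and Man1a2 were 1.32 and 1.25. Fxyd7 had a ratio of 2.31, but 71.4% of its HDAC3i UMIs came from the doubtful cell rich in Ckb and Vim. Its log2 ratio went from 1.21 to -0.21 without the top cell of each library and to -0.49 without the 2 doubtful cells.

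At the low end, Ube2c, a ubiquitin-conjugating enzyme of mitosis, had 2 UMIs in HDAC3i members and 61 in vehicle members, of which 82.0% lay in 1 cell. Enpp6 had from 0 to 13 UMIs in HDAC3i members, in 4 of 20 cells, and from 0 to 35 in vehicle members, in 12 of 35. It made 87.1 CPM against 305 CPM, a ratio of 0.286 (0.169 to 0.458). All of its UMIs lay in committed precursors without Pdgfra, where the CPM were 235 and 713. Without the top cell of each library its log2 ratio went from -1.81 to -2.89, since 65.0% of the HDAC3i UMIs lay in 1 cell. Fkbp15 had 20 and 158 UMIs, a ratio of 0.259 (0.154 to 0.413), with UMIs in 7 of 20 and 16 of 35 cells. Most Fkbp15 UMIs lay in committed precursors, 19 and 155 against 1 and 3 in progenitors. In the HDAC3i library the ratio of committed precursors to progenitors was 6.48 (1.03 to 269), and 47.4% of the 19 UMIs lay in 1 cell.

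Some low genes were spread over many cells. Clk4, a kinase that regulates splicing factors, had UMIs in 5 of 20 and 23 of 35 cells, none of those 5 with more than 2 UMIs, and a ratio of 0.260 (0.0999 to 0.573). Celf1, an RNA-binding protein, had UMIs in 8 of 20 and 23 of 35 cells and a ratio of 0.323 (0.140 to 0.656). Rab33a, Phip and Chn2 had ratios of 0.250, 0.292 and 0.292. Chn2 had UMIs in only 5 and 7 cells and a log2 ratio of -0.59 with each member weighted alike, against -1.78 with UMIs summed. Hmgb2, a chromatin protein of dividing cells, made 100 and 333 CPM, with UMIs in 11 of 20 and 21 of 35 cells.

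**Figure D4:**
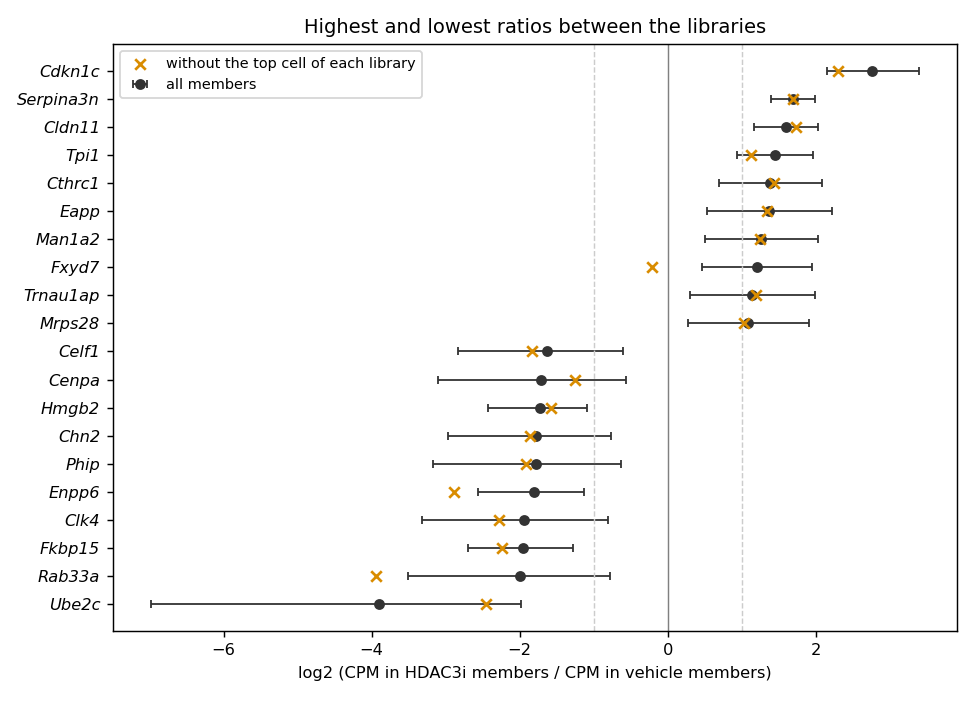
Log2 ratio of CPM in HDAC3i members over vehicle members (horizontal axis) for the 10 genes of highest and the 10 of lowest ratio. Dots are all members with exact 95% counting intervals, crosses leave out the cell with most UMIs of the gene in each library, and dashed lines mark a 2-fold ratio. Cdkn1c stands at 2.75 and 2.30, and Fxyd7 goes from 1.21 to -0.21.

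Apart from marker lists of other cell types, cell cycle genes had the list medians farthest from 0 between the libraries. The mural list had a higher one, 5.82 over 4 genes, from the doubtful cell described above. All 12 measured genes of the G2 and M phase list were at least 2-fold lower in HDAC3i members. Their median log2 ratio was -2.23 against -0.03 over all genes of at least 20 UMIs. Among those 5384 genes 2803 were lower, and 6.07% were at least 2-fold lower. The spindle factor Tpx2, topoisomerase Top2a, the proliferation antigen Mki67, Cdk1, Ccnb1 and Cdc20 had 0 UMIs in HDAC3i members, and their ratios enter the median as bounds at a floor of 3 UMIs over the library. The whole list made 24 UMIs (105 CPM) in HDAC3i members and 467 UMIs (996 CPM) in vehicle members. Of the latter 66.2% came from 1 progenitor. The genes of the list thus reached the minimum of 20 UMIs mainly through the vehicle library, where they were high. The count of 12 and the median therefore add no support beyond these UMIs. Without the cell with most UMIs of the list in each library the sums were 65.7 and 354 CPM and the median log2 ratio -1.26. Of 9 measured S phase genes 8 were lower, 4 of them at least 2-fold, with a median of -0.67. That list had 82 and 331 UMIs, so the same limit holds for it.

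In the vehicle library 459 of the 467 UMIs of the list lay in progenitors, and in the HDAC3i library 10 of 24, with 13 in committed precursors. A set of 14 cycling genes reached at least 9 UMIs in 1 HDAC3i member (10 UMIs) and in 5 vehicle members (9 to 242 UMIs), and all 6 were progenitors. In the 4 HDAC3i progenitors the set had 10, 0, 1 and 0 UMIs. Committed precursors had at most 6 UMIs in the HDAC3i and 3 in the vehicle library. With each cell thinned to 2000 UMIs, 1 of 20 HDAC3i members (5.00%, 0.127 to 24.9) and 5 of 31 vehicle members (16.1%, 5.45 to 33.7) had at least 2 UMIs of the set, and 0 and 4 members were too shallow to be thinned. Before thinning the counts were 2 of 20 and 8 of 35. The ratio of the thinned shares was 0.310 (0.00655 to 2.77). The HDAC3i cell that passed after thinning was a committed precursor, 1 of 13, and the 5 vehicle cells were progenitors, 5 of 13, with 0 of 4 HDAC3i progenitors and 0 of 17 vehicle committed precursors. Before thinning 1 of 4 and 6 of 13 progenitors and 1 of 13 and 2 of 21 committed precursors passed. These are counts of cells within 1 library of each treatment and give no test of a difference in cycling. Among other cells 24 of 397 HDAC3i and 14 of 417 vehicle microglia passed the same call, and 0 of 393 and 0 of 205 mature oligodendrocytes, which allows up to 0.763% and 1.46% of them with such a call.

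Genes of cell cycle control were split. Ccnd1 made 510 CPM in HDAC3i members and 793 CPM in vehicle members. The order turned between the stages, with a ratio of 0.566 (0.407 to 0.770) in progenitors and 1.80 (1.20 to 2.72) in committed precursors. Committed precursors that carried Pdgfra had 741 CPM in both libraries, from 48 and 48 UMIs, and those without it had 3 and 2 UMIs. The former were 6 of 13 HDAC3i and 6 of 21 vehicle committed precursors. Cyclin D3, Ccnd3, was lower at a log2 ratio of -1.20, and Cdkn1b, the inhibitor p27, stood at 0.57.

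Over all genes of at least 20 UMIs 2803 of 5384 were lower in HDAC3i members, and 6.07% were at least 2-fold lower. Of 21 measured committed genes outside the rule 17 were lower in HDAC3i members, 3 of them at least 2-fold (Enpp6, Epb41l2 and Frmd4a), with a median log2 ratio of -0.28. Of 23 measured progenitor genes 17 were lower, 1 at least 2-fold (Dscam, at -1.09), with a median of -0.23. With the stages weighted alike the progenitor median was 0.01. The genes of the rule and the division showed a similar spread: Pdgfra at -0.48, C1ql1 at -0.18, Lhfpl3 at 0.02, Gpr17 at 0.14, Neu4 at -0.58 and Bmp4 at -0.80. The 18 sterol genes had a median of -0.14 with none at 2-fold, and the 10 proteoglycan and matrix genes a median of -0.19 with none at 2-fold. Notch genes had a median of -0.45 over 7 genes, with Hes5, a target that holds progenitors undifferentiated, at -1.14 from 8 and 36 UMIs.

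Myelin genes as a list had a median log2 ratio of 0.01 over 15 genes. Cnp made 1429 CPM in HDAC3i members and 1554 CPM in vehicle members. The exceptions went both ways, Cldn11 and transferrin, Trf, at least 2-fold higher and Mbp and Mobp at least 2-fold lower. Among all genes of at least 20 UMIs the shares were 3.03% and 6.07%. Mbp made 91.5 CPM in HDAC3i members and 441 CPM in vehicle members, and it was one of the genes set aside, with 798 and 908 CPM in the other cells of the libraries. Within vehicle members Mbp was about as high in progenitors (425 CPM) as in committed precursors (445 CPM), unlike Cnp. Microglia of the HDAC3i library had 145 CPM of Mbp. The part of free RNA in these values was not tested.

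**Figure D5:**
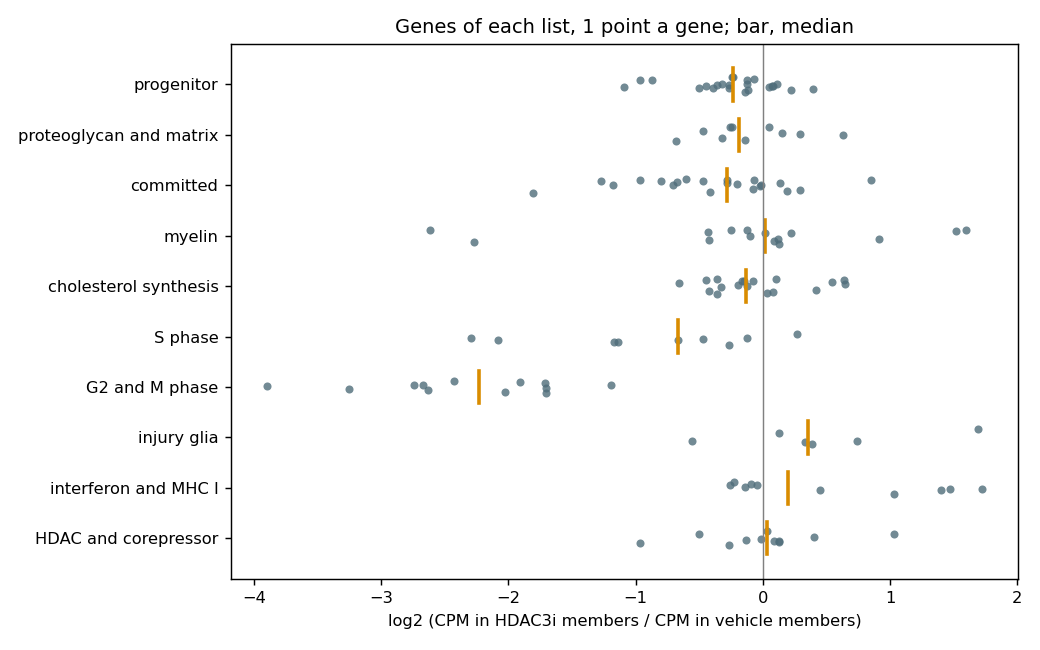
Log2 ratio of CPM in HDAC3i members over vehicle members (horizontal axis) for each measured gene of 10 lists, without rule genes. Each point is a gene, the vertical bar is the median of the list, and genes with 0 UMIs in 1 library stand at their bound. G2 and M phase genes have a median of -2.23, and of -1.26 without the cell with most UMIs of the list in each library. They reached the minimum of 20 UMIs mainly through the vehicle library, so their median adds no support. Medians of the myelin list (0.01) and of the HDAC and corepressor list (0.03) lie near 0.

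With UMIs summed, 5 of 6 measured genes of injured glia were higher in HDAC3i members, Serpina3n at least 2-fold, with a median of 0.36. Over all genes of at least 20 UMIs 2581 of 5384 were higher. The median cell went the other way, with 6.5 UMIs of the list in HDAC3i and 9 in vehicle members, unscaled for depth. Serpina3n, seen in 5 of 20 HDAC3i cells, made 244 of the 520 HDAC3i UMIs, and 1 cell held 144 of the 520. Cd63, a tetraspanin of endosomes, was at 0.74 and complement C4b at 0.33, while Socs3, an inhibitor of cytokine signalling, was at -0.55 with UMIs in 4 of 20 and 18 of 35 cells. Of 10 measured interferon and MHC class I genes 4 were at least 2-fold higher (Irf1, Ifit3, Ifitm3 and Ifi27l2a) and none lower, with a median of 0.20. Shares over all genes of at least 20 UMIs were 3.03% at least 2-fold higher and 6.07% lower. Without the 2 doubtful cells that median was -0.0023, and 78.6% of the HDAC3i UMIs of Ifi27l2a lay in 1 cell. The abundant class I genes B2m, H2-K1 and H2-D1 stood at -0.14, -0.23 and -0.09. Ribosomal protein genes had a median of 0.20, with 16 of 18 higher and none at 2-fold.

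The target of the inhibitor was low in members. Hdac3 had 11 UMIs in 7 of 20 HDAC3i members and 27 UMIs in 15 of 35 vehicle members, 47.9 and 57.6 CPM, with a log2 ratio of -0.26 that ranged from -0.67 to 0.24 over the alternatives. An inhibitor acts on the protein, so this level is no check of the treatment label. The 11 measured HDAC and corepressor genes had a median log2 ratio of 0.03. Only 1 was at least 2-fold higher, Gps2, from 13 and 13 UMIs, against 3.03% of all genes of at least 20 UMIs. The corepressor Ncor1 stood at 0.09. Astrocyte genes that progenitors can take up after injury had a median of -0.13 over 11 genes. Gfap, the astrocyte filament, had UMIs in 2 of 20 and 4 of 35 cells, and Vim, at 610 and 61.8 CPM, owed 118 of its 140 HDAC3i UMIs to the 2 doubtful cells, with a log2 ratio of 3.30 and of 0.74 without them.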

How the data were processed

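Counts are the deposited filtered gene-by-barcode matrices. They were made with Cell Ranger against mm10, with version 3.0.2 per the file headers, and Seurat is also named in the submitters' processing notes. The total was 38957752 UMIs over 3423 barcodes in the HDAC3i library and 29726813 over 2523 in the vehicle library. The cell filter asked for 500 or more genes, 1000 or more UMIs and no more than 15% of UMIs from mitochondrial genes, and 448 and 353 barcodes failed it. UMIs were summed per library or stage and given as CPM, with exact Poisson, binomial and conditional binomial intervals (scipy 1.17.1). Only the conditional binomial intervals were checked on simulated counts. Those counts were Poisson draws, so the check does not cover spread between cells or animals. A gene with 0 UMIs was set to 3 UMIs for a ratio. Rule genes (between libraries) or dividing genes (between stages), mitochondrial and ribosomal genes, haemoglobins and unnamed gene models were left out of the gene comparisons. The text names the rule genes, the 10 highest and 10 lowest ratios between libraries, the 12 highest genes of each stage, the 15 highest over other cells, Hdac3 and measured members of the gene lists, and a few genes of this rule are not reported here. Members and lists were chosen with earlier results of these data known. Scrublet (scanpy 1.11.5) called 23 of 5145 cells (0.447%) as doublets, too few to take the caller as working, and none was a member, so doublets were kept. Gene positions are from a GENCODE annotation of mm10.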

Additional observations from a re-analysis of the deposited data

How the results depend on the processing

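No paired analysis was possible because each treatment has 1 library. The member share kept its direction, at log2 -1.09 to -1.41, under each alternative. The committed share of HDAC3i members was 35.0% when C1ql1 and Cspg4 were added to Pdgfra in the division. When one side had to be 2 times the other, only 10 HDAC3i and 23 vehicle members could be placed. The committed share of those placed was 90.0% (vehicle 78.3%), which is not a share of all members. The committed share thus depends on how cells are divided and on which cells are left. Genes at least 2-fold higher and lower between libraries numbered 65 and 160 at 30 UMIs, 4 and 6 at 100 UMIs, 121 and 212 at 1.5-fold, 32 and 86 with each member weighted alike, and 26 higher with stages weighted alike. Between stages, 139 genes were higher in committed precursors and 106 in progenitors at 30 UMIs, 20 in progenitors at 100 UMIs, 196 and 168 at 1.5-fold, 159 in progenitors with the wider division and 42 in committed precursors with the 2-times margin. The HDAC3i cycling share was 0% with 3 UMIs to a call. Fxyd7 changed sign, to log2 -0.64 with stages weighted alike, -0.49 without the 2 doubtful cells and -0.21 without its top cells. Leaving out the doubtful cells, the deepest HDAC3i progenitor or the top cell of a gene or list was chosen after seeing the data. The number of cells, 4 HDAC3i progenitors above all, limits each comparison of stages.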
